A study of Rattus norvegicus with 15 samples.

Results

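Matrix metalloproteinases were followed in the posterior cerebral artery of the rat after reduced brain perfusion. All probe sets whose platform gene symbol is Mmp2, Mmp3, Mmp7, Mmp8, Mmp9, Mmp11, Mmp12, Mmp13, Mmp14 or Mmp23 were taken. This gave 12 probe sets for 10 genes, of 15866 probe sets and 10411 genes on the array that could each be given a single name, and Mmp2 and Mmp9 had 2 probe sets each. Of the 10 genes, 3 were well measured (Mmp2, Mmp14 and Mmp23) and 7 lay near background. No Mmp probe set passed the test in any of 9 comparisons.

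The arteries came from Sprague Dawley rats aged 7 weeks and weighing 300 to 350 g, taken on the side of the carotid ligation under isoflurane anaesthesia with buprenorphine, after filling with latex under papaverine. The intact group had no operation. In the sham groups, sampled 24 h or 3 d later, the vessels were exposed and left untouched. In the 3-vessel occlusion (3VO) groups, sampled at the same times, both vertebral arteries were electrocoagulated and the left common carotid artery was ligated. Each group held 3 arrays of the Rat230A design, with the RNA of 8 rats pooled for every array. Pooled RNA was hybridised repeatedly, per the labels, so p-values measure only how arrays of a group differ, which may be technical.

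Matrix metalloproteinases are zinc enzymes that cut collagen, elastin, laminin and other matrix proteins of the vessel wall. Most are secreted as inactive proenzymes, and tissue inhibitors (TIMPs) bind the active forms. Mmp14 sits in the plasma membrane and, together with Timp2, activates pro-Mmp2 at the cell surface. Collateral arteries that widen under raised flow are known to remodel their wall, and gelatinases and membrane-bound members of the family have a known part in that remodelling.

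In the RefSeq gene order of the GRCr8 assembly, Mmp13, Mmp12, Mmp3, Mmp8 and Mmp7 lie in a single run of 10 protein-coding genes on chromosome 8, all 10 of them Mmp genes. All 5 were near background here. Their promoters are shown beside that of the well measured Mmp23 because they carry different short motifs. RefSeq promoter sequences matched 7 of the 10 genes and not Mmp2, Mmp9 or Mmp14. Mmp23 is thus the only well measured member with a promoter here. Each line holds 80 bases, from position -100 to position -21 relative to the annotated start. Capitals mark TGAGTCA (the AP-1 motif), TATAAA (the TATA box) and, in Mmp23, GGGCGG (the Sp1 motif), each searched on both strands, so that reverse complements are in capitals too.
Mmp13: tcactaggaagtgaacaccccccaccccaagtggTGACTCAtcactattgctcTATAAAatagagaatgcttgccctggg
Mmp12: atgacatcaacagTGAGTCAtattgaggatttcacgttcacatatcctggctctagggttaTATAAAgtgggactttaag
Mmp3: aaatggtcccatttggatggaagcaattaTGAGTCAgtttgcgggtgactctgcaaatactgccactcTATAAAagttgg
Mmp8: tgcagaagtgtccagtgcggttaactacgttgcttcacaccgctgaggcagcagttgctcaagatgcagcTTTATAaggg
Mmp7: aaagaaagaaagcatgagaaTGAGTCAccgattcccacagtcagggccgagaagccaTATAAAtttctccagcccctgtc
Mmp23: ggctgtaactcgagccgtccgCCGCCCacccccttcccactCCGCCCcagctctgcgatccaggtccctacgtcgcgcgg

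These windows lie at chr8:12782729-12782808 (Mmp13), chr8:12866552-12866631 (Mmp12), chr8:12925181-12925260 (Mmp3), chr8:13008790-13008869 (Mmp8) and chr8:13132943-13133022 (Mmp7) on the plus strand, and at chr5:171524555-171524634 (Mmp23) on the minus strand. Over the whole 300-base promoter the AP-1 motif occurred in Mmp13, Mmp12, Mmp3 and Mmp7, that is in 4 of the 7 matched genes, and in 4.63% of all 33469 promoters of the table. A TATA box occurred in 5 of the 7, all in the chromosome 8 run, and in 14.2% of all promoters. The Sp1 motif occurred in Mmp23 and Mmp11, 2 of the 7, and in 33.1% of all promoters. Mmp11, on chromosome 20, held the Sp1 motif 4 times and was near background all the same. No marked motif overlapped another. A match of letters is a description of the promoter and not a measurement of binding.

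Signals are the linear values that the authors scaled to a common mean on every array. No detection call came with them, so a limit was set on each array from 75 probe sets of 70 genes that arteries are not known to express, such as genes of the pancreas or testis. The limit is the 90th percentile of those probe sets, between 1325 and 2255 over the 15 arrays. A probe set was called well measured when it exceeded the limit on all 3 arrays of at least 1 group, as 65.1% of all probe sets and 9 of the 75 limit-setting probe sets did. Mmp14, Mmp23 and 1 of the 2 Mmp2 probe sets exceeded it on all 15 arrays. The second Mmp2 probe set (1369825_at) exceeded it on 8 arrays and Mmp12 on 2 arrays, and the other 7 probe sets on none. Levels of different probe sets are not set against each other, because probes differ in brightness.

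Markers of the vessel wall were present, with 10 of 10 smooth muscle and 8 of 10 endothelial genes above the limit on every array. So were 12 of 12 genes of a joint list of fibroblasts and leptomeninges, which is not particular to the wall. RNA of neighbouring brain tissue was also present. Neuron markers, 10 of 17 above the limit on all arrays, summed to 425133, 294417 and 156315 on the intact arrays and to 85652 to 247296 on the other 12. Choroid plexus markers, 5 of 9 above the limit on all arrays, summed to 526253 on intact array 2 and 509696 on sham array 3 at 3 d, against 30341 to 256447 elsewhere. No marker of either list was at 0. The labels of sham array 1 at 3 d conflict: its title and source say sham and its treatment text describes the occlusion. It is kept as sham, and the comparison of 3VO with sham arteries at 3 d is also given without it for the well measured members, Mmp8, Mmp9, Mmp11 and Timp1. Its Timp1 signal was 15921, against 17319.8 and 16329 on the other sham arrays and 45062 to 67169.8 on the 3VO arrays of that day. In pooled artery RNA, fewer cells of a type and less RNA per cell cannot be told apart.

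Mmp14, the membrane-bound activator of pro-Mmp2, was lowest in intact arteries and high in both sham groups and in 3VO arteries at 3 d. Its signals (probe set 1367860_a_at) were 15653, 16876 and 11274.5 in intact arteries. They were 20865, 21196 and 25458 in sham arteries at 24 h and 14826, 16716 and 19334 in 3VO arteries at 24 h. At 3 d they were 21021.5, 26276 and 21476 in sham arteries and 23140.4, 25292 and 22106 in 3VO arteries. From low to high the group means were those of intact arteries (14601 ± 2945, SD, n = 3), 3VO at 24 h (16959 ± 2264), sham at 24 h (22506 ± 2561), sham at 3 d (22925 ± 2911) and 3VO at 3 d (23513 ± 1625). Intact arteries and 3VO arteries at 24 h overlapped, the 3 higher groups overlapped with each other, and every array of the 3 higher groups lay above every array of the 2 lower ones.

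At 24 h all 3 arrays with 3VO lay below all 3 sham arrays for Mmp14. The log2 difference was -0.41 with a standard error (SE) of 0.16, a ratio of 0.752, and it did not pass limma's test (unadjusted p = 0.0204, adjusted p = 0.621). Wall cell markers lay lower as well in 3VO than in sham arteries at 24 h. For smooth muscle this held for 10 of 10 genes (median -0.67, summed signal 264870 to 372838 against 458761 to 551175) and for endothelium for 9 of 10 (median -0.28). Markers of a joint list of fibroblasts and leptomeninges lay lower for 11 of 12 (median -0.23). Neuron markers lay higher for 17 of 17 (median 0.96, summed signal 128206 to 247296 against 88796 to 145173). Of all these markers 0 passed. Apart from the fit with the neuron markers as covariate given below, the markers' part in the Mmp14 difference was not tested. At 3 d the difference was 0.04 with a 95% interval of -0.30 to 0.38, and without the sham array of conflicting labels it was -0.02. The change of the 3VO effect between the times was 0.45 with an interval of -0.02 to 0.93 (adjusted p = 0.999). From 24 h to 3 d after 3VO, Mmp14 differed by 0.48 without overlap (unadjusted p = 0.00872, adjusted p = 0.742).

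Against intact arteries the Mmp14 difference was 0.64 in sham arteries at 24 h (ratio 1.56, adjusted p = 0.135), 0.66 in sham arteries at 3 d (adjusted p = 0.143) and 0.71 in 3VO arteries at 3 d (ratio 1.63, adjusted p = 0.0979). In 3VO arteries at 24 h it was 0.23 (adjusted p = 0.669). These comparisons share the intact arrays. In sham arteries at 24 h, smooth muscle (10 of 10 genes, median 0.43) and endothelial markers (10 of 10, median 0.65) lay above intact arteries. So did those of fibroblasts and leptomeninges (11 of 12, median 0.57), whereas 17 of 17 neuron markers lay below (median -1.13). Of these markers 0 passed. Smooth muscle markers lay above intact arteries for 9 of 10 genes in sham arteries at 3 d (median 0.17). After 3VO they lay below for 8 of 10, both at 24 h (median -0.30) and at 3 d (median -0.18). Endothelial markers lay above for 9 of 10 at 24 h and 8 of 10 at 3 d after 3VO. So did those of fibroblasts and leptomeninges for 9 of 12 at both times. Macrophage markers lay above for 14 of 14 after 3VO, and 4 passed at 24 h and 2 at 3 d. The part of the wall, leptomeninges and macrophage markers was not tested. None of the Mmp14 differences passed. Leaving out intact array 3, the lowest for Mmp14, took the difference of the 3VO arteries at 3 d from 0.71 to 0.53. Its adjusted p went to 0.0800, while the probe sets called in that comparison went from 35 to 258. Without sham array 1 at 3 d, the sham difference at 3 d was 0.72. With the mean of the neuron markers as a covariate the difference of sham arteries at 24 h from intact ones was 0.75 and the 3VO difference at 24 h was -0.50 (adjusted p = 0.862 and 0.688), so both differences were larger in size than without it.

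**Figure D1:**
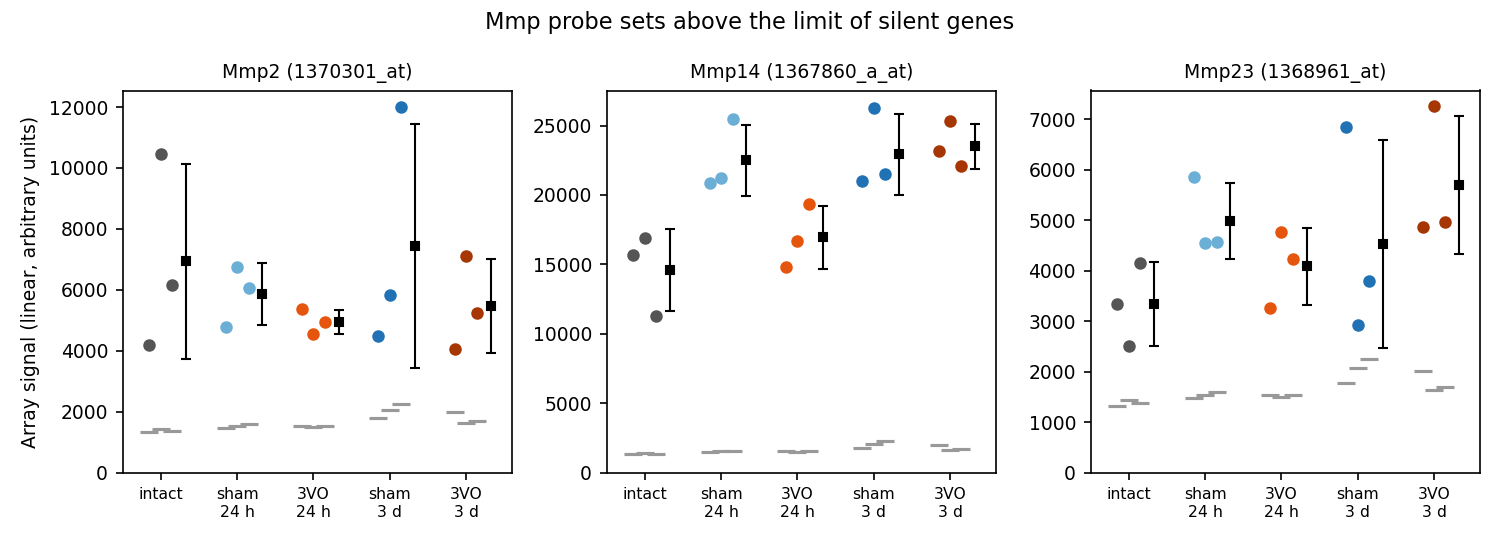
Linear array signal of the 3 well measured Mmp probe sets in the 5 groups. Coloured points are single arrays, black squares with bars are group means ± SD of 3 arrays, and grey dashes are the background limit of each array. All arrays lie above the limit, and Mmp14 in intact arteries and in 3VO arteries at 24 h lies below the 3 other groups.

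Mmp23, a membrane-anchored member that lacks the usual cysteine switch, had signals (1368961_at) of 3337, 2502.5 and 4165 in intact arteries. They were 5857, 4545 and 4575 in sham arteries and 3269, 4767 and 4230.1 in 3VO arteries at 24 h. At 3 d they were 6849.5, 2932.5 and 3802 in sham arteries and 4862, 7275.5 and 4968 in 3VO arteries. The means ran from 3335 ± 831 in intact arteries over 4089 ± 759 (3VO at 24 h), 4528 ± 2057 (sham at 3 d) and 4992 ± 749 (sham at 24 h) to 5702 ± 1364 (3VO at 3 d), and each neighbouring pair in this order overlapped. The sham array of conflicting labels gave the highest sham signal at 3 d.

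For Mmp23 the 3VO difference was -0.29 at 24 h (95% interval -0.90 to 0.31) and 0.40 at 3 d (-0.21 to 1.01), neither of which passed. Without the sham array of conflicting labels the difference at 3 d was 0.74 (adjusted p = 0.680). Sham arteries at 24 h and 3VO arteries at 3 d did not overlap with intact ones, with log2 differences of 0.60 (adjusted p = 0.338) and 0.78 (unadjusted p = 0.0156, adjusted p = 0.280). The neuron marker list moved the opposite way, with 17 of 17 genes below intact arteries in both groups (median -1.13 and -0.77). With its mean as a covariate the difference of sham arteries at 24 h from intact ones was 0.07 in place of 0.60, that of 3VO arteries at 3 d was 0.45, and the 3VO difference at 24 h was 0.09 in place of -0.29.

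Mmp2, gelatinase A, cuts denatured collagen and basement membrane collagen. Its well measured probe set (1370301_at) had signals of 4182, 10462 and 6166 in intact arteries, of 4779.9, 6767 and 6068 in sham arteries at 24 h and of 5358, 4565 and 4959 in 3VO arteries at 24 h. At 3 d they were 4479, 5843 and 12009 in sham arteries and 4069, 7114 and 5229 in 3VO arteries. All 5 groups overlapped. The highest signals, 10462 and 12009, were those of the 2 arrays richest in choroid plexus markers, and the 13 other arrays lay between 4069 and 7114. Without those 2 arrays the mean was 5174 in intact arteries, in place of 6937 ± 3210, and 5161 in sham arteries at 3 d, in place of 7444 ± 4012.

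The 3VO difference of Mmp2 was -0.23 at 24 h (95% interval -0.97 to 0.51). At 3 d it was -0.35 (-1.09 to 0.39), and 0.06 when the 2 arrays with the most choroid plexus signal were left out. Leaving out the sham array of conflicting labels instead gave -0.65. The second Mmp2 probe set (1369825_at) ranged from 1111 to 3017 over the 15 arrays, and its highest signal was again that of sham array 3 at 3 d. Its group means were 1437 in intact arteries, 1469 and 1523 in sham and 3VO arteries at 24 h, and 2083 and 1919 at 3 d.

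**Figure D2:**
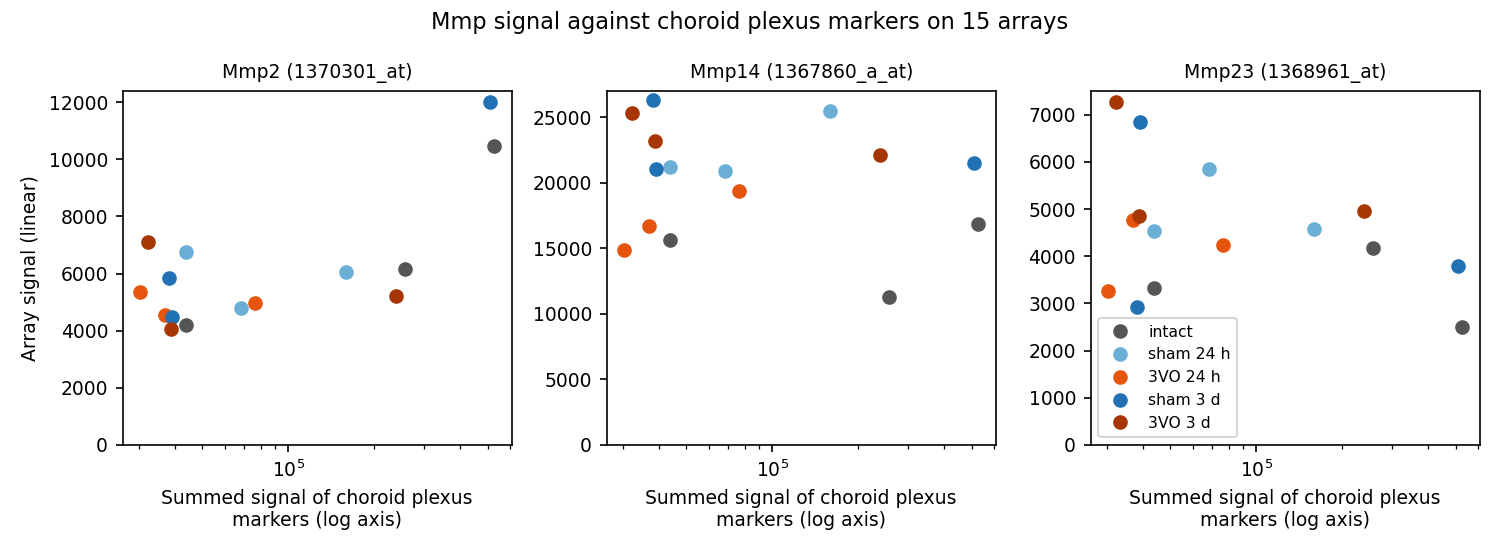
Linear array signal of Mmp2, Mmp14 and Mmp23 against the summed signal of the 9 measured choroid plexus markers (log axis), with 1 point for each of 15 arrays coloured by group. The 2 arrays at the right, at 526253 and 509696, hold the highest Mmp2 signals of 10462 and 12009, whereas their Mmp14 signals of 16876 and 21476 lie among those of the other arrays. Their Mmp23 signals were 2502.5, the lowest of the 15, and 3802.

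Genes with the most similar pattern were found by Pearson's r of log2 signals over the 15 arrays, among probe sets with a mean signal of at least 1000. They were Rbm47 (r = 0.903), Prps2 (0.892) and Slc4a2 (0.878) for Mmp2, Rps27l (0.905), Tnfaip6 (0.895) and Hnrnpa2b1 (0.879) for Mmp14, and Rpl5 (0.904), Lgals1 (0.897) and Rcn1 (0.896) for Mmp23. The arrays share group and tissue makeup, so these values describe likeness alone.

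The other 9 probe sets lay near background, where no fold is given. Mmp9, gelatinase B, a product of neutrophils, macrophages and stimulated vessel wall cells, had 2 probe sets. Signals of 1398275_at were 113, 140 and 81 in intact arteries, 45, 123 and 99 in sham and 97, 130 and 409.9 in 3VO arteries at 24 h, and 146, 412 and 212 in sham and 529.9, 681 and 696 in 3VO arteries at 3 d. All 3 arrays with 3VO at 3 d exceeded the other 12, yet each was below its limit. The difference from sham arteries had an unadjusted p of 0.0314 (adjusted p = 0.999; 0.866 without the sham array of conflicting labels) and that from intact arteries one of 0.000916 (adjusted p = 0.113). The second Mmp9 probe set (1369166_at) did not show this: at 3 d its signals were 108, 1172 and 889.8 in sham and 1035, 1262 and 515 in 3VO arteries, and it ranged from 364 to 678 in the other 3 groups.

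Mmp8, the neutrophil collagenase, had signals of 572, 598 and 585 in intact arteries and of 364, 1014 and 1148 in sham and 693, 562 and 504 in 3VO arteries at 24 h. At 3 d they were 755, 1062 and 899.8 in sham and 41, 190 and 519 in 3VO arteries. The 3VO arrays at 3 d all lay below the sham arrays (unadjusted p = 0.00256, adjusted p = 0.703; 0.622 without the sham array of conflicting labels). Of 6 measured neutrophil markers, 1 exceeded the limit on all arrays, and their summed signal was 7698 to 9864 in 3VO arteries at 3 d against 9085 to 32070 in sham arteries, with none at 0. Its part in the result was not tested.

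Mmp11, stromelysin 3, known from fibroblasts of remodelling tissue, had signals of 258, 327 and 396 in sham and 923, 676 and 738 in 3VO arteries at 3 d, without overlap (unadjusted p = 0.0261, adjusted p = 0.999; 0.857 without the sham array of conflicting labels). Intact arteries, at 787, 539.9 and 795, overlapped with the 3VO arrays at 3 d. At 24 h its signals ranged from 199 to 811.

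Mmp13, the main interstitial collagenase of rodents, had signals of 91, 493 and 349 in intact arteries. All 12 arrays of the operated groups lay above these, between 516 and 853, in sham and 3VO arteries alike. Unadjusted p-values against intact arteries were 0.0298 and 0.0228 for sham and 3VO at 24 h and 0.0127 and 0.0221 at 3 d, and the lowest adjusted p was 0.249. Every Mmp13 signal was below the limit of its array.

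Mmp12, the macrophage elastase, spread from 335 to 1524 in intact arteries, 354 to 1570 in sham and 638 to 1037 in 3VO arteries at 24 h, and 186 to 1823 in sham and 1026 to 1476 in 3VO arteries at 3 d, and all groups overlapped. Macrophage markers, 11 of 14 above the limit on every array, summed to 310628 to 458671 in 3VO and 221807 to 311304 in sham arteries at 24 h. At 3 d the sums were 265974 to 337207 after 3VO and 201965 to 235813 in sham arteries, without overlap, and their part in the values of Mmp9, Mmp11 and Mmp12 was not tested. Mmp3, stromelysin 1, which activates other proenzymes, ranged from 168 to 756 over the 15 arrays. Mmp7, matrilysin, an epithelial enzyme, ranged from 39 to 237. All 5 groups overlapped for both.

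**Figure D3:**
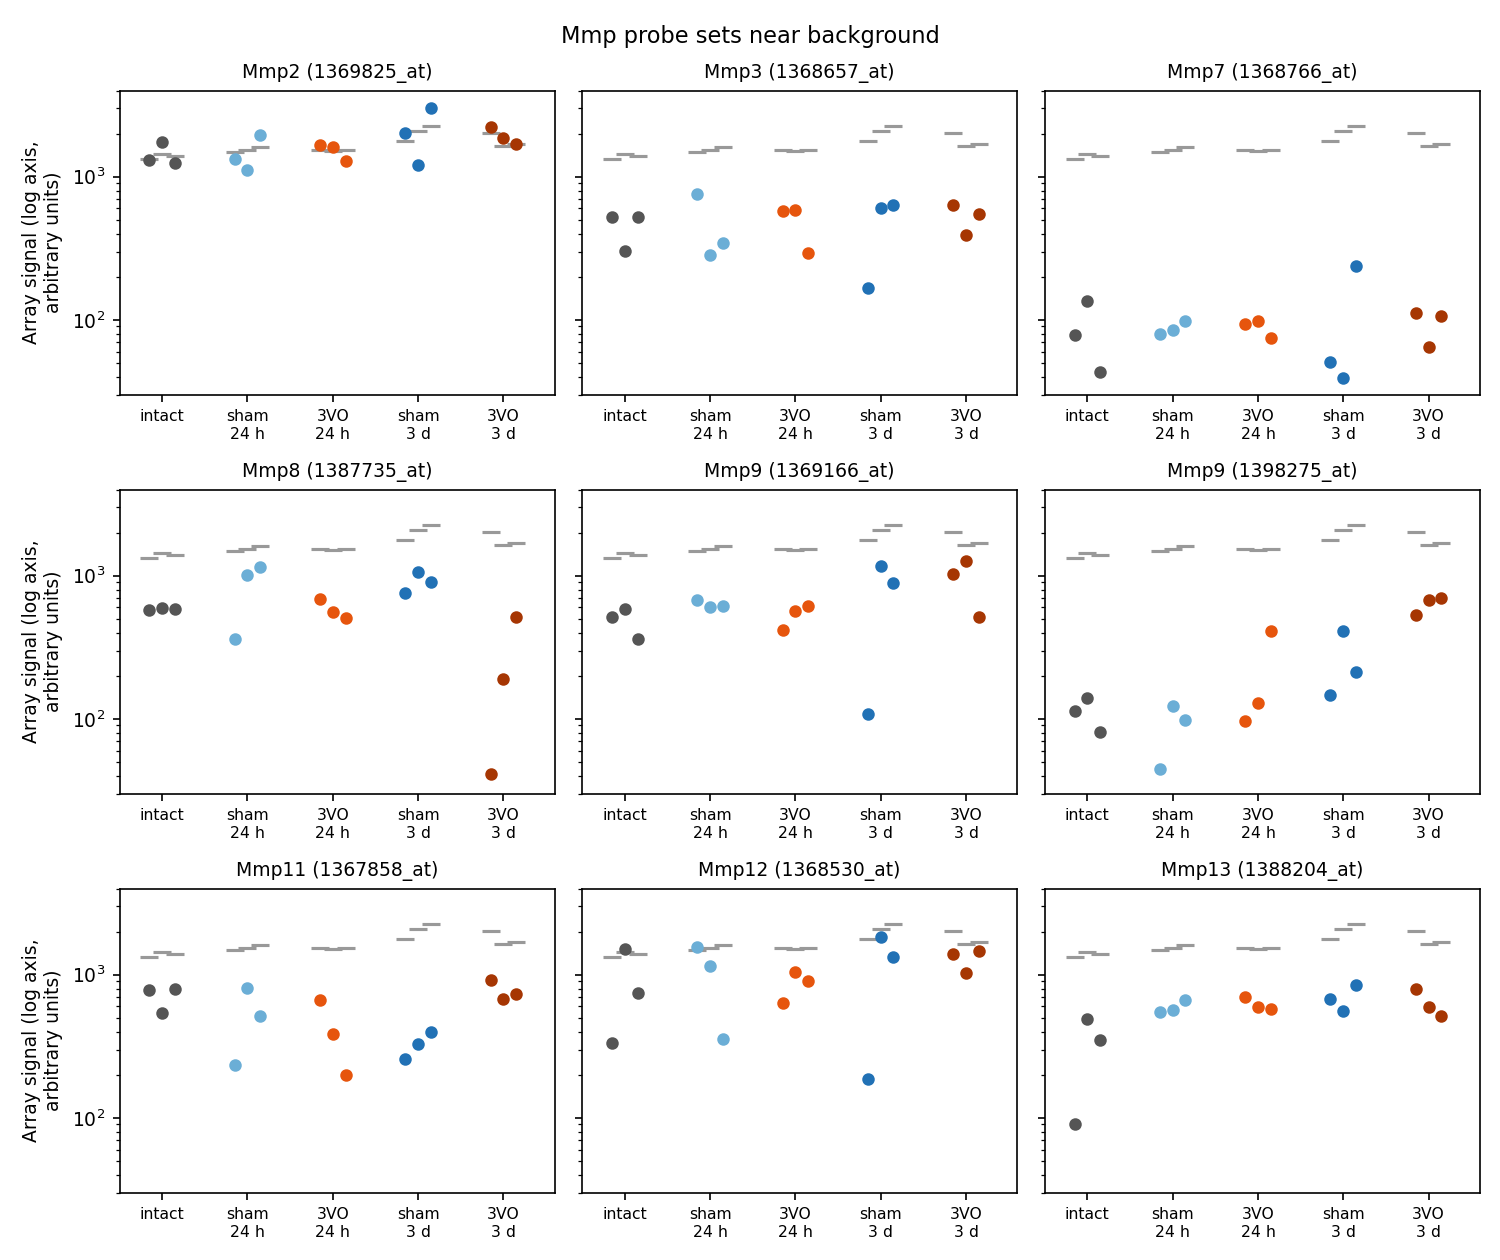
Array signal (log axis) of the 9 Mmp probe sets near background in the 5 groups, with 1 point for each array and grey dashes for the background limit of each array. Points of Mmp2 (1369825_at) lie around the limit, and those of Mmp3, Mmp7, Mmp8, Mmp9, Mmp11 and Mmp13 lie below it on all arrays.

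Counted over all 12 probe sets, 0 passed the test for 3VO against sham at 24 h, where limma called 0.0508% of 15737 probe sets (8, all higher), and 1 had an unadjusted p under 0.05 (6.97% of all). Without overlap 0 were higher and 1 was lower, against 6.42% and 9% of all probe sets. At 3 d 0 passed, as did 0% of all, and 3 had an unadjusted p under 0.05 (4.73% of all). There 2 were higher and 1 was lower without overlap, against 4.34% and 4.75% of all, and these 3 (Mmp9, Mmp11 and Mmp8) were near background. The median log2 difference of the 3 well measured probe sets was -0.29 at 24 h and 0.04 at 3 d, against -0.02 and -0.01 over all probe sets tested. For the change of the 3VO effect between the times 0 passed (0% of all) and 2 had an unadjusted p under 0.05 (2.78% of all), Mmp8 and Mmp11.

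Sham arteries at 24 h had 4 of the 12 higher and 0 lower than intact arteries without overlap (9.96% and 7.41% of all). Sham arteries at 3 d had 4 higher and 1 lower (9.86% and 5.34% of all). The counts for 3VO arteries were 1 higher and 0 lower at 24 h (7.59% and 6.19% of all) and 4 higher and 1 lower at 3 d (10.3% and 5.11% of all). Of the higher ones, 2 and 3 were near background in sham arteries at 24 h and 3 d. In 3VO arteries 1 and 2 were. The lower ones were near background too. None of the 12 passed in these comparisons, where limma called 0%, 0%, 0.184% and 0.222% of all probe sets (0, 0, 29 and 35). These shares rest on intact array 3: without it 818, 184, 227 and 258 probe sets were called, and still 0 of the 12. Unadjusted p-values under 0.05 were found for 2, 3, 1 and 5 of the 12, against 15%, 14.2%, 9.96% and 12.9% of all.

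From 24 h to 3 d after 3VO, 5 of the 12 were higher and 0 lower without overlap (9.34% and 4.68% of all), 3 had an unadjusted p under 0.05 (5.76% of all) and 0 passed (0% of all). Of the 5 higher ones, 3 were near background and 2 well measured (Mmp14 and Mmp23). Between the sham groups 1 was higher, near background, and 0 were lower (6.73% and 4.55% of all). There 1 had an unadjusted p under 0.05 (5.65% of all) and 0 passed (0% of all).

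**Figure D4:**
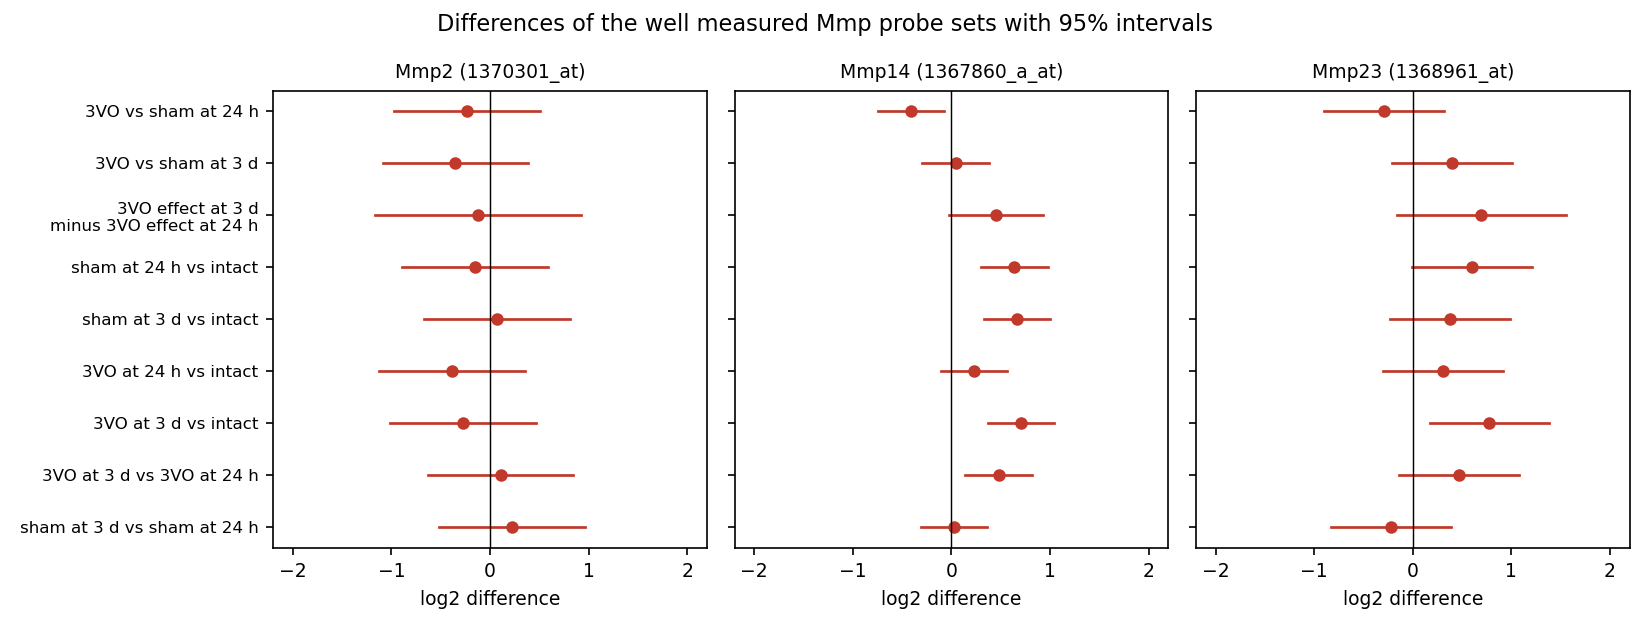
Log2 difference (log2 of signal + 16) of the 3 well measured Mmp probe sets in all 9 comparisons, as points with 95% intervals from limma and a line at 0. Mmp14 lies at -0.41 for 3VO against sham at 24 h and between 0.64 and 0.71 for both sham groups and 3VO at 3 d against intact arteries, and none passed after adjustment.

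Genes that act with the family were taken from lists of known partners and counted with the brightest probe set of each gene. Of the other Mmp genes, 4 of 12 listed could be tested (Mmp10, Mmp16, Mmp17 and Mmp24), and none passed in any comparison. Among inhibitors, 9 of 13 could be tested, and 2 rose with 3VO at 24 h: Timp1, the inducible tissue inhibitor, and A2m, a plasma protein that traps proteases. Timp1 signals were 17936, 18183 and 16189 in sham and 106956, 136845 and 72983 in 3VO arteries at 24 h, a log2 difference of 2.55 (SE 0.25, adjusted p = 0.000690), which passed under all 28 alternatives. A2m differed by 1.68 (SE 0.23, adjusted p = 0.0105) and did not pass under 4 of the 28. These were leaving out sham array 2 or 3 or 3VO array 2 of that time (adjusted p = 0.0738, 0.0633 and 0.0993) and fitting without a variance trend (0.0733). At 3 d the Timp1 difference was 1.73, with 45062, 67169.8 and 53962 after 3VO against 15921 to 17319.8 in sham arteries, and did not pass (adjusted p = 0.0869). Without the sham array of conflicting labels it was 1.70 (adjusted p = 0.239). The Timp1 difference at 3 d passed under 5 of the 28 alternatives (lowest adjusted p = 0.00537). Against intact arteries Timp1 passed after 3VO at 24 h (3.02, adjusted p = 7.29e-05) and at 3 d (2.12, adjusted p = 0.00659). So did A2m, at 24 h (1.62, adjusted p = 0.00815) and at 3 d (1.34, adjusted p = 0.0321). These values against intact arteries are given for the main fit alone.

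The inhibitors that pair with the well measured members differed less. Timp2, the partner of Mmp14 in activating Mmp2, differed by 0.11 at 24 h and 0.20 at 3 d between 3VO and sham arteries. Its other probe set differed by -0.08 and -0.04. Timp3, bound to the matrix, differed by -0.24 and -0.21 with its brightest probe set. The other Timp3 probe sets differed by -0.07, -0.17 and -0.31 at 24 h and by 0.36, 0.22 and -0.20 at 3 d. Reck, a membrane-anchored inhibitor, differed by -0.18 and -0.11. None of these passed, with adjusted p-values at 24 h of 0.942, 0.875 and 0.902 for the brightest probe sets.

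Of the activators and cell surface partners, 18 of 24 could be tested and 1 rose with 3VO at 24 h. This was Lcn2, lipocalin 2, which binds Mmp9 and slows its breakdown, at 1954, 2572.5 and 1996 in sham and 14471, 22088 and 7515 in 3VO arteries, a log2 difference of 2.63 (SE 0.38, adjusted p = 0.0141). Lcn2 did not pass under 6 of 28 alternatives. These were leaving out any 1 of the 3 sham arrays or 3VO array 1 or 2 of that time (adjusted p from 0.0589 to 0.122) and fitting without a variance trend (0.0733). The plasminogen activators Plat and Plau differed by -0.15 and 0.12 at 24 h (adjusted p = 0.939 and 0.962). Plaur, the receptor of Plau, was near background in both, at 208, 873 and 221 in sham and 1278, 1427 and 296 in 3VO arteries. The protease Furin, which activates pro-Mmp14, differed by 0.10, and Bsg, an inducer of Mmp genes on the cell surface, by 0.07, neither of which passed. Of related metalloproteinases of the ADAM and other families, 13 of 18 could be tested and none passed in any comparison.

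All 28 listed substrates in the vessel wall could be tested. None passed between 3VO and sham arteries at 24 h, where 21 had lower and 7 higher values and the median was -0.28, against -0.02 over all probe sets tested. Nid2, a basement membrane linker, differed by -0.80 (adjusted p = 0.405), Col5a1, a chain of collagen V, by -0.62 (adjusted p = 0.414) and Col1a1, the main chain of collagen I, by -0.52 (adjusted p = 0.517). Eln, elastin, differed by -0.94 (adjusted p = 0.541). In sham arteries at 24 h against intact ones, 26 of 28 had higher values with a median of 0.55, against 0.04 over all tested, and 0 passed, although 17 had an unadjusted p under 0.05 (15% of all probe sets tested). Col1a1 signals there were 33128, 40678 and 42356 in intact and 61348, 74013 and 80352 in sham arteries (adjusted p = 0.116). Many of these substrates are known as products of wall cells, but not all of them (Bcan, brevican, is in the list). In both of these comparisons, markers of smooth muscle, of endothelium and of fibroblasts and leptomeninges lay in the same directions. Neuron markers lay in the opposite ones, as given beside Mmp14. Col1a1, Col1a2, Col3a1 and Dcn stand in both the substrate list and the fibroblast and leptomeninges list, so these 2 lists are not independent. The markers' part was not tested. The 1 substrate that rose against intact arteries was Spp1, osteopontin, in 3VO arteries at 24 h (2.25, adjusted p = 0.0210). In that comparison macrophage markers lay higher for 14 of 14 genes, of which 4 passed, and their part in the Spp1 difference was not tested. Spp1 did not pass under 8 of 28 alternatives. Among these were leaving out intact array 1 or 2 or 3VO array 1 or 2 at 24 h (adjusted p = 0.0754, 0.107, 0.0943 and 0.141). The others were the array number as covariate (0.462), the arrays of the comparison alone (0.231) and no variance trend (0.0863). The last was leaving out the 2 arrays with the most choroid plexus signal (0.139). The array number fit cannot decide here, because the intact arrays have the highest numbers.

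Of genes known to induce Mmp transcription, 27 of 30 could be tested, among them the AP-1 subunits Jun, Junb, Fosl1 and Fosl2. None passed between 3VO and sham arteries at either time. Jun differed by 0.13 at 24 h and 0.09 at 3 d, and Fosl2 by 0.77 and 0.75 (adjusted p = 0.736 at 24 h). Ccl2, a monocyte chemokine, was the 1 gene of the list that rose against intact arteries, in 3VO arteries at 3 d (adjusted p = 0.0321). Its signals were 496, 286 and 502 in intact arteries, below the limit, and 2189.6, 5877 and 8803 in 3VO arteries at 3 d. No fold is given against a level below the limit. Ccl2 did not pass under 13 of 28 alternatives. Among these were leaving out intact array 1 or 2, 3VO array 2 or 3 at 3 d, or sham array 2 or 3 at 24 h (adjusted p from 0.0562 to 0.192). Others were quantile normalization (0.0668), median centring (0.0604), no variance trend (0.0818), and the array number (0.174) or neuron markers (0.135) as covariate. The last were the arrays of the comparison alone (0.236) and leaving out the 2 arrays with the most choroid plexus signal (0.0762). As for Spp1, the array number fit cannot decide here.

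**Figure D5:**
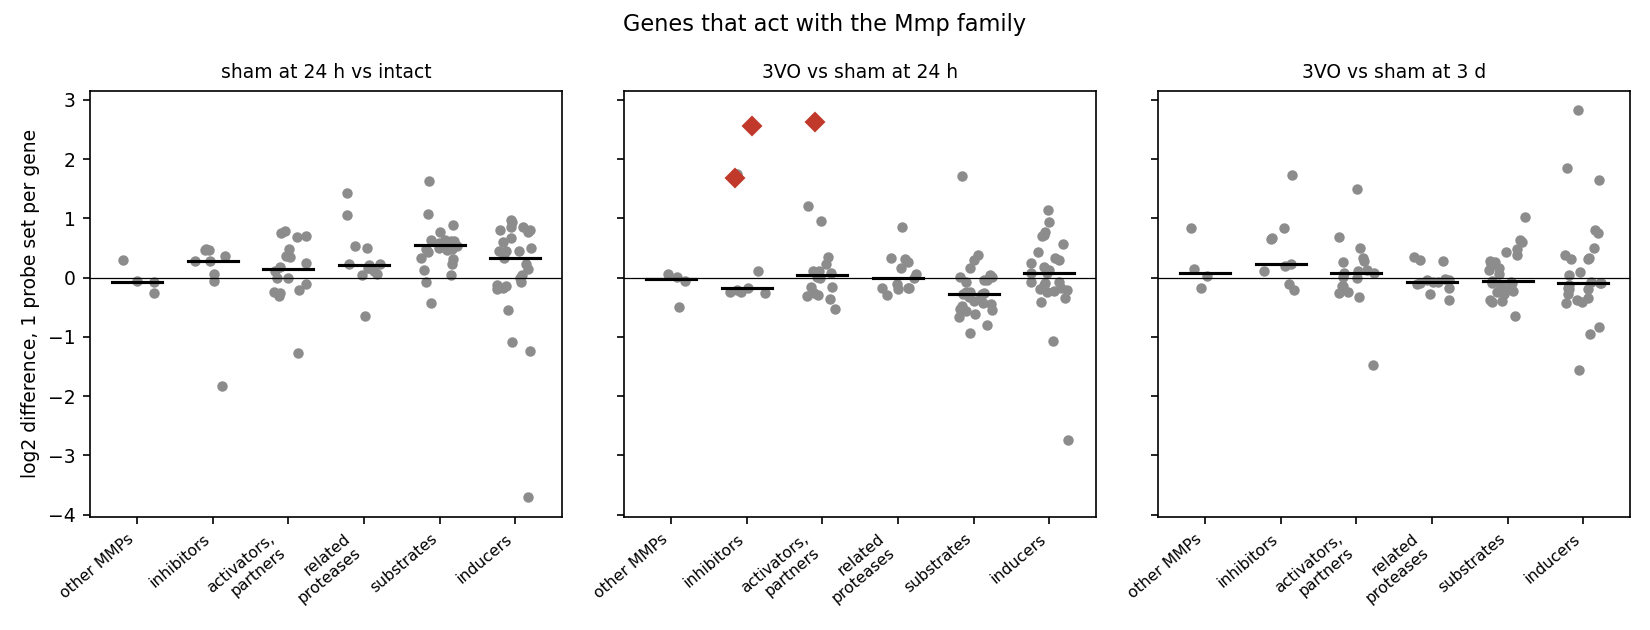
Log2 difference of genes that act with the Mmp family, with 1 point for the brightest probe set of each gene, in sham against intact arteries at 24 h and in 3VO against sham arteries at 24 h and 3 d. Black lines are list medians and red diamonds are genes that passed (Timp1, A2m and Lcn2 at 24 h); the substrate median is 0.55 in the left panel and -0.28 in the middle one.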

How the data were processed

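Signals of 15 arrays were analysed as the authors deposited them: a linear intensity per probe set from GCOS, per the labels, version not given in the sources used here. Scaling by the authors was to a global target. The design text gives 500, whereas the trimmed mean was 5000 on every array. No 2 arrays held identical values. The 57 control probe sets were left out. Probe sets with a signal of 100 on at least 3 arrays were kept (15737 of 15866, all 12 Mmp probe sets among them). Values of log2(signal + 16) were fitted with limma 3.58.1 (R 4.3.3), with 5 group means over all arrays and a variance trend, 2-sided, with Benjamini-Hochberg adjustment over all probe sets and a threshold of 0.05. Ratios are on the log2(signal + 16) scale, which understates changes of dim probe sets. The script was tested on simulated data. Probe sets were named by the platform table: 12783 with 1 gene, 312 with several and 2771 with none. All members are named. From the other lists up to 4 genes with the smallest p for 3VO against sham could be named, a few partners (Timp1, Timp2, Timp3, A2m, Reck, Plau, Plat, Plaur, Bsg) are given whatever their values, and Furin, Eln, Jun and Fosl2 were chosen after their values were seen. Members and lists were chosen with earlier results of these data known. Precision is limited by 3 arrays per group.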

Additional observations from a re-analysis of the deposited data

How the results depend on the processing

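No Mmp probe set passed limma's test in any of the 9 comparisons under any of 28 alternatives, which were other pseudocounts and signal minimums, quantile normalization, median centring, no variance trend, array weights, the array number as covariate, the arrays of the comparison alone, leaving out each of the 15 arrays, and, added after seeing the data, the neuron markers as covariate and leaving out the 2 arrays with the most choroid plexus signal. The lowest adjusted p of any member was 0.0800. How many members had an unadjusted p under 0.05 is given per comparison in the report. Over all probe sets the 8 calls for 3VO against sham at 24 h ran from 1 to 25 over the alternatives. The 29 and 35 calls for 3VO at 24 h and 3 d against intact arteries ran from 1 to 227 and from 0 to 258, with 1 and 3 calls with the array number as covariate. The number of Mmp probe sets above the background limit was 3, and 5 with a fixed signal of 1000, where Mmp12 and the second Mmp2 probe set were added by the lower limit itself. The second Mmp2 probe set was also added with a lower percentile as limit, and with the main limit when any 3 of the 15 arrays sufficed. No difference with an unadjusted p under 0.05 changed its sign. Group means moved by over 1 SD in 4 of 144 cases, all near background and under quantile normalization. No paired analysis was possible because array numbers differ between all 15 arrays.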
